A study of Mus musculus with 31 samples.

Results

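The comparison described here set the 0.2U group labelled RPC against its vehicle controls: 4 mice whose masseter muscle (MM) received a low dose of collagenase type 2 (Col) and 3 mice whose MM received vehicle, 7 of the 31 libraries of the series. Members were taken by their sample titles, RPC 1 to 4 and control 1 to 3, and every gene with at least 10 reads in at least 3 of the 7 libraries was tested. The series models temporomandibular disorder myalgia, pain of the jaw muscles, and also holds a second 0.2U group labelled 1C, 3 groups that received 10U of Col, and groups that received CFA (complete Freund's adjuvant) with their own controls. The labels do not state on which day after injection the RPC mice were taken, so the group keeps its label, and the day of collection of the vehicle mice is not given either. All 31 libraries came from male C57BL/6J mice, with no engineered allele, and RPC and vehicle differ by the label only in the injected agent. Col type 2 is a crude enzyme preparation that cuts fibrillar collagen. The whole MM was dissected with tendon trimmed away, so each library sums over all cells of the piece, and fewer cells of a type cannot be told apart from less RNA per cell.

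The MM closes the jaw and in mice is made almost wholly of fast-twitch fibres, which burn glycogen and express fast isoforms of the contractile proteins. White adipocytes store triglyceride that they make from glucose with acetyl-CoA carboxylase, fatty acid synthase and desaturases. Brown and beige adipocytes burn it, because uncoupling protein 1 (UCP1) lets protons re-enter their mitochondria without ATP synthesis. Fat depots, salivary glands and the lacrimal glands lie close to the jaw muscles.

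Reads assigned to genes were 19967262 to 25902295 in the RPC mice and 21284802 to 23862787 in the vehicle mice. Genes of the sarcomere summed to 114700-152100 CPM (counts scaled to library size times its TMM normalization factor) in RPC and 163400-217700 CPM in vehicle, as a muscle label requires. The same libraries also held RNA of other tissues. The 21 salivary gland markers among the counted genes, 19 of them tested, summed to 24100, 262600, 174900 and 105400 CPM in RPC 1 to 4. In vehicle 1 to 3 they summed to 139.2, 128700 and 39520 CPM. All 4 RPC mice were thus above vehicle 1 and the groups overlapped. Amy1, the salivary amylase, gave 50.8 CPM in vehicle 1 and 100747 CPM in RPC 2. The bone-marrow granule gene Ngp was at 56.5, 63.3, 0.416 and 73.8 CPM in RPC and 58.7, 1.4 and 395 CPM in vehicle. RPC 3 and vehicle 2 were therefore low and vehicle 3 high for granulocyte genes. The part of this mixture in any single result was not tested, except where a fit with a salivary score is given beside it.

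**Figure D1:**
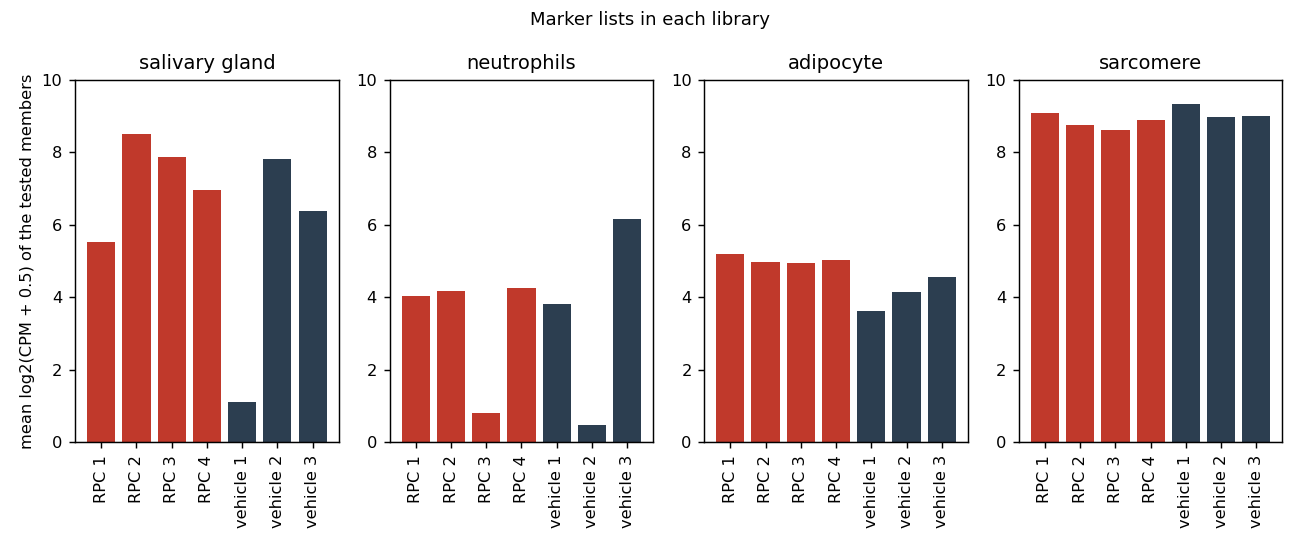
Mean log2(CPM + 0.5) of the tested members of 4 marker lists (y axis) in each of the 7 libraries (x axis), RPC in red and vehicle in dark blue. Salivary gland scores spanned 5.53-8.49 in RPC and 1.10-7.80 in vehicle, neutrophil scores were lowest in vehicle 2 and RPC 3, adipocyte scores were above every vehicle mouse in all 4 RPC mice, and sarcomere scores overlapped.

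Of 14269 genes tested, no gene was up-regulated or down-regulated (0% in each direction) by edgeR's quasi-likelihood test at an adjusted p under 0.05, a fold above 2 and a group mean above 1 RPKM (CPM per kilobase of exon). The smallest adjusted p was 0.175, for Tmem233. At an unadjusted p under 0.05, 904 genes (6.34%) were higher and 1020 (7.15%) lower in RPC. The Wald test of DESeq2, run with the same thresholds, called 110 genes up-regulated (0.771% of the 14269) and 42 down-regulated (0.294%). It gave an adjusted p to 11761 of the 14269 genes and none to the rest, which it could not call. On simulated counts, at an adjusted p under 0.05 alone, 42 of 224 DESeq2 calls and 13 of 183 edgeR calls were false. Each gene was drawn independently there, without the mixture of tissues that differed between these mice. The shares therefore do not give the false share among the real calls. Leaving out 1 library at a time moved the DESeq2 counts to between 50 (without RPC 3 or without vehicle 1) and 346 (without vehicle 3) up-regulated and to between 30 (without RPC 3) and 81 (without vehicle 3) down-regulated; of the calls on all 7 mice, 34 up and 14 down were made in each of the 7 reduced fits. All 4 RPC mice lay above all 3 vehicle mice in 704 genes (4.93%) and below them in 1023 (7.17%). These shares are the background for the members of each list said below to be apart. The fat lists hold genes that the study names for this dose from samples that include these, among them Ucp1, Elovl6, Fasn, Scd1, Pck1 and Adipoq. Counts over those lists are thus not independent of the study's report. The main test was that of edgeR, which called no gene on these 7 mice, and DESeq2 was an alternative. Below, a gene called up-regulated or down-regulated is a call of this alternative, DESeq2, unless edgeR is named. No such gene passed the main test.

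Genes of thermogenic fat had the largest fold changes among the fat genes. Ucp1, the proton leak of brown and beige adipocytes (mm9 chromosome 8, 85814247-85822355, plus strand), gave 74.1, 109, 94.2 and 36.5 CPM in RPC 1 to 4 and 0.0357, 1.24 and 1.75 CPM in vehicle 1 to 3, the vehicle values resting on 1, 23 and 45 reads. Every RPC mouse was above the highest vehicle mouse. The log2 fold change was 6.30 ± 0.90 (SE; edgeR adjusted p = 0.227, DESeq2 adjusted p = 4.93e-07), and 5.70 to 7.08 without any one mouse. Cidea, a lipid droplet protein of brown fat, read 48.2, 37, 34.1 and 14.9 CPM against 0.499, 2.26 and 3.03 CPM. The groups did not overlap, and DESeq2 called the gene up-regulated (edgeR log2 fold change 4.13 ± 0.65, edgeR adjusted p = 0.227, DESeq2 adjusted p = 1.49e-10). In both genes RPC 4 was the lowest of the RPC mice and vehicle 1 the lowest of the vehicle mice. Otop1, a proton channel found in brown fat, had 6.24, 3.58, 2.91 and 2.49 CPM against 0.856, 0.967 and 0.738 CPM, a log2 fold change of 2.15 ± 0.40 (edgeR adjusted p = 0.237, DESeq2 adjusted p = 0.000388). Kcnk3, a potassium channel that is also expressed in brown adipocytes, had 9.01, 13.5, 11.2 and 5.78 CPM against 1.43, 1.34 and 4.04 CPM (log2 fold change 2.11 ± 0.48, edgeR adjusted p = 0.265, DESeq2 adjusted p = 0.000946). Neither gene's groups overlapped. Elovl3, the elongase of very long fatty acids that rises when brown fat is recruited, was rare: 63 reads over the 4 RPC libraries and 4 over the 3 vehicle libraries, a ratio of 13.1 with an exact 95% interval of 4.87 to 49.6 for counting error only.

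Of 18 tested genes in the brown fat and thermogenesis list, 10 were higher and 8 lower in RPC, and their median log2 fold change was 0.661, beside 0.014 over all genes tested. In 8 of them all 4 RPC mice were above all vehicle mice, and in none below. DESeq2 called 6 up-regulated, Ucp1, Cidea, Otop1, Kcnk3, Slc27a2 and Ppara, the receptor that switches on fatty acid oxidation. Members chosen after their values were seen show the other side of the list. Prdm16, the transcription factor that specifies brown adipocytes, was at 14.5, 13, 13 and 13.9 CPM in RPC and 15.2, 13.3 and 14.2 CPM in vehicle, with overlapping groups (log2 fold change -0.07 ± 0.13). The mitochondrial subunits Cox7a1 and Cox8b, which muscle fibres also express, had log2 fold changes of -0.38 ± 0.31 and -0.43 ± 0.36. Ppargc1a, the coactivator of mitochondrial biogenesis, was at 98.9, 57.4, 531 and 218 CPM in RPC and 38, 30.3 and 54.5 CPM in vehicle. The groups did not overlap, but DESeq2 did not call it (log2 fold change 2.47 ± 0.75, edgeR adjusted p = 0.290, DESeq2 adjusted p = 0.0684).

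Slc27a2, a very long chain acyl-CoA synthetase of the same list, ranked the RPC mice in another order than Ucp1. It read 10.3, 39.7, 196 and 1.07 CPM in RPC and 0.0714, 0.269 and 0.155 CPM in vehicle, and DESeq2 called it (log2 fold change 8.59 ± 2.05, edgeR adjusted p = 0.265, DESeq2 adjusted p = 7.65e-06). Obp1a, an odorant-binding lipocalin of secretory glands, was at 1285, 3296, 23062 and 2.33 CPM in RPC and 2.78, 5.27 and 3.3 CPM in vehicle. Mup4, another secreted lipocalin, was at 207, 693, 4098 and 0.633 CPM against 0.464, 0.806 and 0.66 CPM. RPC 4 was thus not above the vehicle mice in either gene, and RPC 3 was the highest. Obp1a and Mup4, named after their values were seen, belong to the 32 DESeq2 calls with a log2 fold change above 5. In 25 of those 32, RPC 1 to 3 were above every vehicle mouse and RPC 4 was not, as in 26 of all 110 up-regulated calls and 230 of 14269 genes tested. The androgen-binding protein gene Abpe had the same pattern, and Ucp1 and Nr4a3 did not. The part of gland RNA in the Slc27a2 value was not tested.

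**Figure D2:**
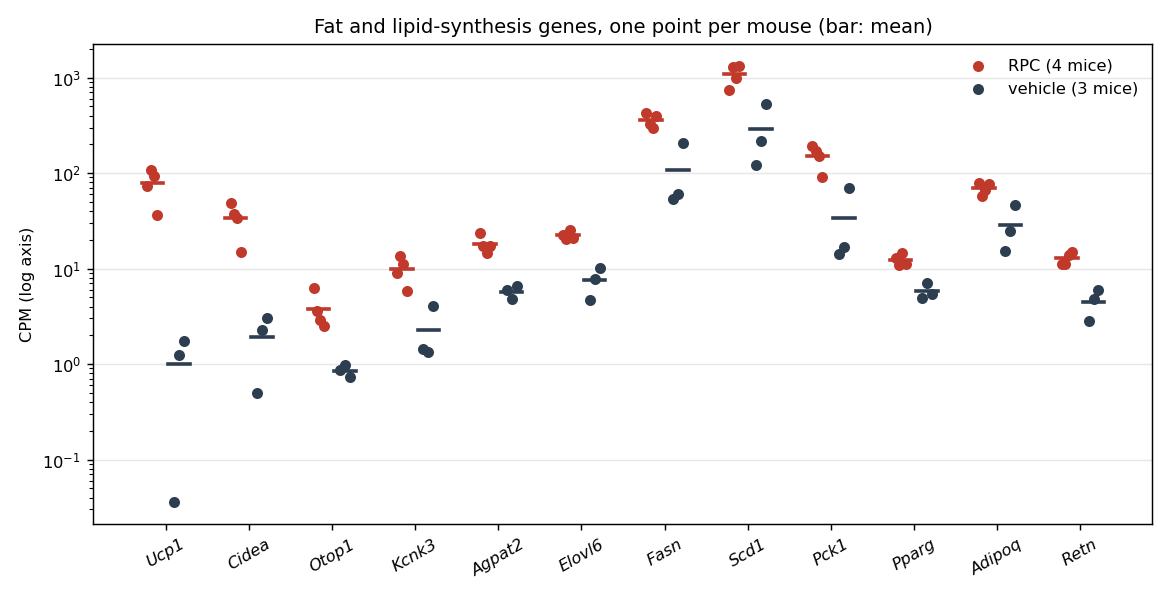
CPM on a log axis (y) of 12 genes of brown fat, lipid synthesis and adipocytes (x), 1 point per mouse, RPC in red and vehicle in dark blue, bars at the group means. All 4 RPC mice lie above all 3 vehicle mice in each gene, with the widest gap in Ucp1, whose lowest RPC value was 36.5 CPM and highest vehicle value 1.75 CPM.

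Genes of fatty acid and triglyceride synthesis were higher in RPC. Agpat2, which adds the second fatty acid to the glycerol backbone (mm9 chromosome 2, 26448577-26459937, minus strand), read 23.6, 17.2, 14.6 and 17.2 CPM in RPC and 5.92, 4.78 and 6.52 CPM in vehicle. The groups did not overlap and DESeq2 called it in all 7 reduced fits (log2 fold change 1.66 ± 0.22, edgeR adjusted p = 0.227, DESeq2 adjusted p = 4.98e-08). Elovl6, the elongase that turns palmitate into stearate (mm9 chromosome 3, 129235304-129341413, plus strand), read 22.6, 20.3, 25.6 and 20.7 CPM against 4.71, 7.74 and 10.1 CPM. Its 4 RPC values were close together and all above vehicle (log2 fold change 1.57 ± 0.26, edgeR adjusted p = 0.232, DESeq2 adjusted p = 1.02e-05). Fasn, fatty acid synthase (mm9 chromosome 11, 120667254-120685492, minus strand), had 421, 327, 294 and 400.2 CPM against 53.7, 60.1 and 209 CPM. Scd1, the stearoyl-CoA desaturase, had 745, 1278, 998 and 1329 CPM against 121, 218 and 523 CPM. Pck1, the carboxykinase that makes glycerol phosphate in fat (mm9 chromosome 2, 172978549-172984774, plus strand), had 192, 169, 151 and 90.3 CPM against 14.1, 16.8 and 69.8 CPM. In all 3 genes vehicle 3 was the highest vehicle mouse and still below every RPC mouse. Their log2 fold changes were 1.75 ± 0.49 for Fasn, 1.92 ± 0.50 for Scd1 and 2.17 ± 0.60 for Pck1, with edgeR adjusted p-values of 0.280, 0.272 and 0.277 and DESeq2 adjusted p-values of 0.00556, 0.00126 and 0.00245. With the salivary score as a covariate the DESeq2 adjusted p-value of Pck1 became 0.301, while Fasn and Scd1 kept 0.0431 and 0.0104. Of all 110 up-regulated calls, 49 were called again in that fit.

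Over the 26 genes of the synthesis list, 18 were higher and 8 lower, and the median log2 fold change was 0.628. Groups were apart and RPC higher in 11 of the 26, and lower in 1, Pcx, pyruvate carboxylase. Elovl6, Fasn, Scd1 and Pck1, among the 11, are genes the study names for this dose. DESeq2 called 7 up-regulated and none down-regulated, among them Pnpla3, a lipid droplet hydrolase (14.7, 13.9, 13.9 and 24.4 CPM against 6.78, 6.34 and 9.12 CPM). Thrsp, a lipogenic regulator, was also apart between groups (log2 fold change 0.91 ± 0.17, edgeR adjusted p = 0.237), as was Dgat1, the last enzyme of triglyceride synthesis (0.70 ± 0.14, edgeR adjusted p = 0.250), both under the 2-fold threshold. Me1, Mlxipl, Elovl5 and Fads1 had overlapping groups. Fatty acid oxidation genes gave a smaller median, 0.125 over 23 genes. Pdk4, the kinase that shuts off glucose oxidation, was the only member that DESeq2 called, with 2066, 727, 1021 and 628 CPM in RPC and 458, 230.0 and 443 CPM in vehicle, and this list's median was -0.09 with both vehicle groups pooled and -0.04 at its lowest without 1 mouse.

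White and general adipocyte genes were higher in RPC as well. Of 25 genes for adipocyte identity, lipid storage and adipokines, 23 were higher and 2 lower. Their median log2 fold change was 0.739, and 11 had all RPC mice above all vehicle mice. DESeq2 called 8 up-regulated. Pparg, the master regulator of adipocyte differentiation, had 13, 10.9, 14.6 and 11 CPM against 4.92, 7.09 and 5.43 CPM (log2 fold change 1.09 ± 0.21, edgeR adjusted p = 0.237, DESeq2 adjusted p = 0.000605). The adipokine gene Retn had 11.2, 11.2, 13.8 and 14.8 CPM against 2.82, 4.78 and 5.9 CPM (1.5 ± 0.28, edgeR adjusted p = 0.237, DESeq2 adjusted p = 0.00013). Adipoq, which encodes adiponectin, had 78, 57.2, 65.8 and 76.3 CPM against 15.3, 25 and 45.8 CPM (1.27 ± 0.35, edgeR adjusted p = 0.276, DESeq2 adjusted p = 0.0122). In Adipoq and Retn vehicle 1 was the lowest and vehicle 3 the highest vehicle mouse, and no group overlapped. DESeq2 called Adipoq in 3 of the 7 reduced fits, and its adjusted p was 0.0907 with the salivary covariate. The β3-adrenoceptor gene Adrb3 (10.4, 5.63, 7.59 and 7 CPM against 0.214, 1.61 and 2.17 CPM) and the adipocyte gene Adig (11.3, 8.06, 7.68 and 6.61 CPM against 1.5, 2.31 and 3.57 CPM) were called in all 7. Other adipocyte genes had smaller differences. Fabp4, the fatty acid carrier of adipocytes and capillaries, had a log2 fold change of 0.46 ± 0.23, and Lpl, lipoprotein lipase, of 0.24 ± 0.22, both with overlapping groups. Whether the RPC pieces held more fat or fat with another programme was not tested.

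**Figure D3:**
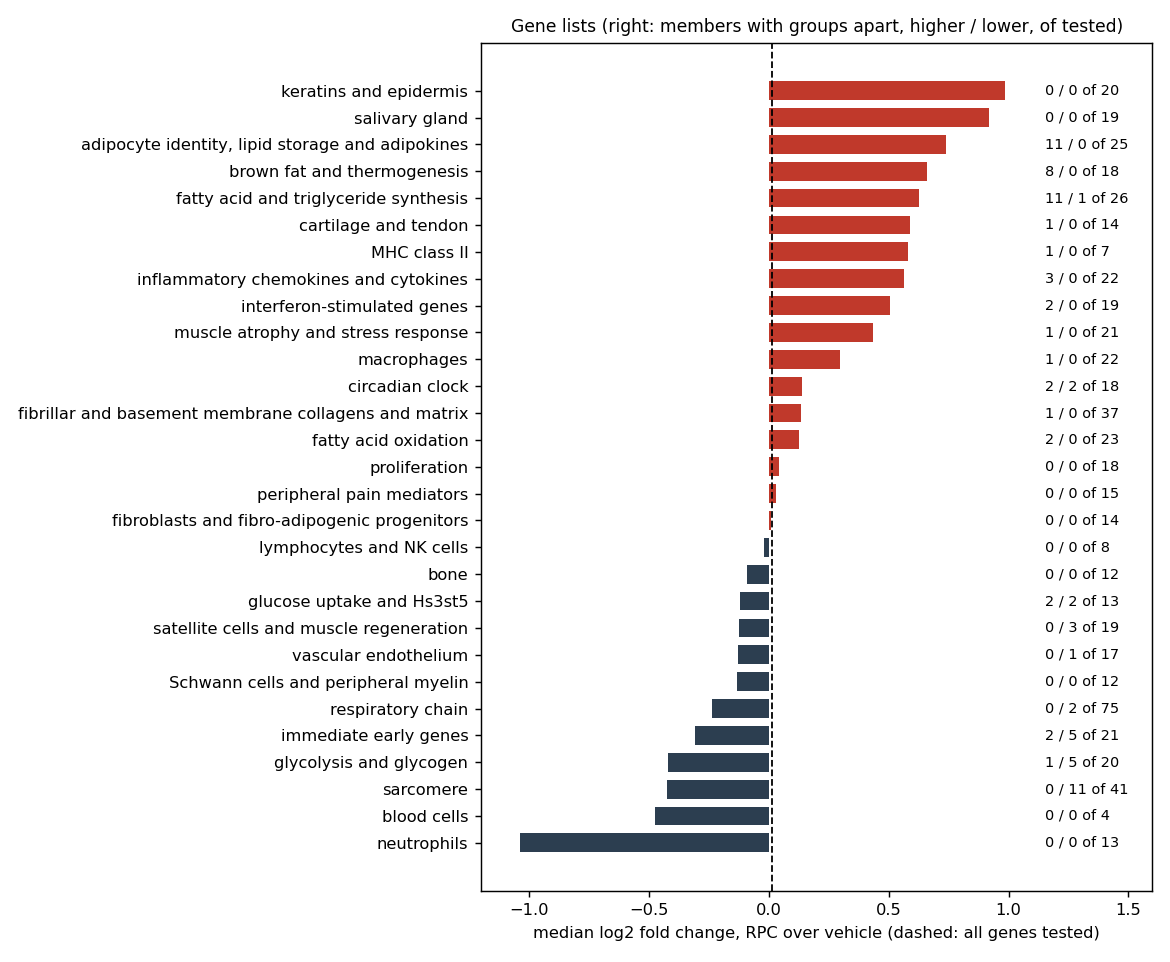
Median log2 fold change of RPC over vehicle (x axis) for 29 gene lists (y axis), with the dashed line at the median over all genes tested, 0.014, and at the right the number of tested members whose groups were apart, higher and then lower. The adipocyte, brown fat and synthesis lists had the most members apart and higher (11, 8 and 11), the sarcomere list the most apart and lower (11 of 41), and the keratin and salivary lists had large medians with no member apart.

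The 300 bases of RefSeq around the start of 4 of these genes (GRCm38.p6, 250 bases before to 50 after the annotated start) are printed because Ucp1, Pck1, Fasn and the immediate early gene Nr4a3 are well-studied targets of hormone and nutrient signals. Capitals mark TGACG, the core of the cyclic AMP response element, in Ucp1 (chr8:83290098-83290397, plus strand), Pck1 (chr2:173152823-173153122, plus strand) and Nr4a3 (chr4:48045055-48045354, plus strand), and CCAAT in Fasn (chr11:120824498-120824797, minus strand), on either strand. Matches on the reverse strand read CGTCA or ATTGG, and in Fasn a CCAAT and an ATTGG overlap.
Ucp1: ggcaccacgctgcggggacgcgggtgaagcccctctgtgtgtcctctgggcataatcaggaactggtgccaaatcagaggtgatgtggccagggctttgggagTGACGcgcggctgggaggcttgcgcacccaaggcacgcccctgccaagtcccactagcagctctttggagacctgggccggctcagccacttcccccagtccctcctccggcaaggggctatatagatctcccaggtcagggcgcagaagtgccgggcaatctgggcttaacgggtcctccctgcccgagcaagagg
Pck1: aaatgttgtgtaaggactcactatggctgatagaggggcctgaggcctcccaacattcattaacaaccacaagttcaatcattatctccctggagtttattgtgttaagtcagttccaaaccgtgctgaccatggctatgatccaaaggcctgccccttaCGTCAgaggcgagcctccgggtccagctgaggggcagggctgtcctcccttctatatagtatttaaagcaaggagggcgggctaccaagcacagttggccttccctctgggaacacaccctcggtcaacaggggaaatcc
Nr4a3: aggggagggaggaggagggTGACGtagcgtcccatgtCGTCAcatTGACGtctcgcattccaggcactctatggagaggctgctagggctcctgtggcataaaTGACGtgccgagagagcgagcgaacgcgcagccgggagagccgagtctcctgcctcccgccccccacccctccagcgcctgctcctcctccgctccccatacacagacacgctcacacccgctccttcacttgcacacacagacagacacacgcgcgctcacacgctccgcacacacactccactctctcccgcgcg
Fasn: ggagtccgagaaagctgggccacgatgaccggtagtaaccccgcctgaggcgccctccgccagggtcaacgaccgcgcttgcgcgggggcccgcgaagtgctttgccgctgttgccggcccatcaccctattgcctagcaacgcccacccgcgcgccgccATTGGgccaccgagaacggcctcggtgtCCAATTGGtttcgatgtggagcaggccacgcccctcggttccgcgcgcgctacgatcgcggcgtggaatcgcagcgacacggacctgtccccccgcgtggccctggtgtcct
Ucp1 and Pck1 held 1 TGACG match each, Nr4a3 held 4 and Fasn held 3 CCAAT matches. TGACG stood in 21% of the 27025 RefSeq promoters of this length, 1 per gene, and in 16 of the 72 up-regulated DESeq2 calls with a promoter (22.2%) and 4 of the 32 down-regulated ones (12.5%). The full element TGACGTCA, which contains it, stood in 1.88% of all and in 2 of the 72. CCAAT stood in 37.9% of all, in 35 of the 72 (48.6%) and in 15 of the 32 (46.9%). These are counts of letters, not of bound sites.

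Immediate early and hormone-responsive genes went both ways. Nr4a3, an orphan nuclear receptor induced by cyclic AMP and exercise, had 38.3, 14.7, 358 and 66.9 CPM in RPC and 2.03, 1.67 and 5.82 CPM in vehicle. RPC 3 was the highest and the groups did not overlap (log2 fold change 5.22 ± 1.25, edgeR adjusted p = 0.265, DESeq2 adjusted p = 0.000605), and 3.65 at its lowest without 1 mouse. Atf3, a stress-induced transcription factor, had 43.5, 12.5, 61.3 and 10.6 CPM against 4.32, 3.06 and 6.48 CPM (2.79 ± 0.69, edgeR adjusted p = 0.265, DESeq2 adjusted p = 0.000365). Irs2, the insulin receptor substrate, had 41.3, 47.5, 111 and 33.8 CPM against 15.1, 8.81 and 17.1 CPM (2.09 ± 0.46, edgeR adjusted p = 0.265, DESeq2 adjusted p = 0.000278). All 3 were called in each reduced DESeq2 fit. Other immediate early genes were lower. Dusp1, a phosphatase of MAP kinases, had 55, 74.4, 33.5 and 55 CPM against 98.3, 119 and 105 CPM, and Zfp36, an mRNA decay factor, had 21.9, 28.4, 27.3 and 31 CPM against 43.4, 37.8 and 52.9 CPM, with groups apart and log2 fold changes of -0.98 ± 0.25 and -0.72 ± 0.17 that were under 2-fold. Of the 21 tested immediate early genes, 9 were higher and 12 lower (median -0.306), with 2 apart and higher and 5 apart and lower.

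Clock genes gave a mixed picture, with 9 of 18 higher and 9 lower. Per2, a repressor of the clock, had 17.2, 28.9, 30.9 and 54.7 CPM in RPC and 5.46, 9.24 and 12.4 CPM in vehicle (log2 fold change 1.87 ± 0.43, edgeR adjusted p = 0.265, DESeq2 adjusted p = 0.000946). Arntl, its activator, had 13.9, 7.04, 16.9 and 6.85 CPM against 24.9, 19.4 and 22.3 CPM, lower in every RPC mouse (-0.99 ± 0.34, edgeR adjusted p = 0.303, DESeq2 adjusted p = 0.105). Nr1d1, a repressor of Arntl, overlapped between groups (-0.60 ± 0.18). The labels used here give no time of day, and its part in these values was not tested.

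The genes with the smallest p-values among those lower in RPC had varied roles. Tmem233, a membrane protein with the smallest p of all genes (mm9 chromosome 5, 116488764-116533253, minus strand), had 46.5, 45.9, 39.1 and 40.4 CPM in RPC and 97.5, 111 and 95.1 CPM in vehicle. Both groups were tight and apart (log2 fold change -1.24 ± 0.13, edgeR adjusted p = 0.175, DESeq2 adjusted p = 1.42e-13). Prkag3, the AMP kinase subunit of glycolytic muscle (mm9 chromosome 1, 74786073-74795795, minus strand), had 13, 18.2, 9.85 and 13 CPM against 38.8, 58.8 and 37.8 CPM (-1.74 ± 0.24, edgeR adjusted p = 0.227, DESeq2 adjusted p = 3.53e-07). Pfkfb3, which makes the activator of phosphofructokinase, had 174, 138, 158 and 162 CPM against 359.8, 435 and 726 CPM (-1.68 ± 0.25, edgeR adjusted p = 0.227, DESeq2 adjusted p = 1.4e-07). The 4 RPC mice agreed closely in Pfkfb3 while the vehicle mice spread widely above them. Slc16a10, an aromatic amino acid transporter, had 37.4, 36.3, 31.7 and 41.9 CPM against 80.8, 71.6 and 69.6 CPM (-1.01 ± 0.14, edgeR adjusted p = 0.227, DESeq2 adjusted p = 3.53e-07), and Plcd4, a phospholipase C, had 46.4, 29.7, 34.6 and 31.4 CPM against 72.7, 99.6 and 81.1 CPM (-1.25 ± 0.19, edgeR adjusted p = 0.227, DESeq2 adjusted p = 1.02e-05). Plcd4 lies over parts of Usp37 and Zfp142 on the other strand. The strand setting of the counting was not given in the sources used here, so reads of overlapping genes may be shared between them. Of these genes, Tmem233, Prkag3, Pfkfb3 and Plcd4 were called in all 7 reduced DESeq2 fits and Slc16a10 in 4.

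Contractile genes were lower too, by smaller folds than Prkag3. In the sarcomere list 30 of 41 genes were lower and 11 higher, the median log2 fold change was -0.424, and 11 of the 41 had every RPC mouse below every vehicle mouse. DESeq2 called 2 down-regulated. Actn3, the α-actinin of fast fibres, had 2078, 2454, 2161 and 2807 CPM against 4438, 5668 and 4187 CPM (-1.0 ± 0.24, edgeR adjusted p = 0.265, DESeq2 adjusted p = 3.17e-05). Myh4, the myosin heavy chain of the fastest fibres, had 7558, 9823, 7670.0 and 10204 CPM against 12353, 19972 and 20819 CPM (-1.01 ± 0.32, edgeR adjusted p = 0.295, DESeq2 adjusted p = 0.00202), and 18.8% of its 50-base windows also occur in other genes, chiefly Myh1. The groups were apart in both. Fast troponin I (Tnni2, -0.90 ± 0.26) and fast troponin C (Tnnc2, -0.92 ± 0.28) were also apart, under the 2-fold threshold. With the salivary score as a covariate the log2 fold changes were -1.08 for Actn3, -1.2 for Myh4, -0.90 for Tnni2 and -0.92 for Tnnc2.

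**Figure D4:**
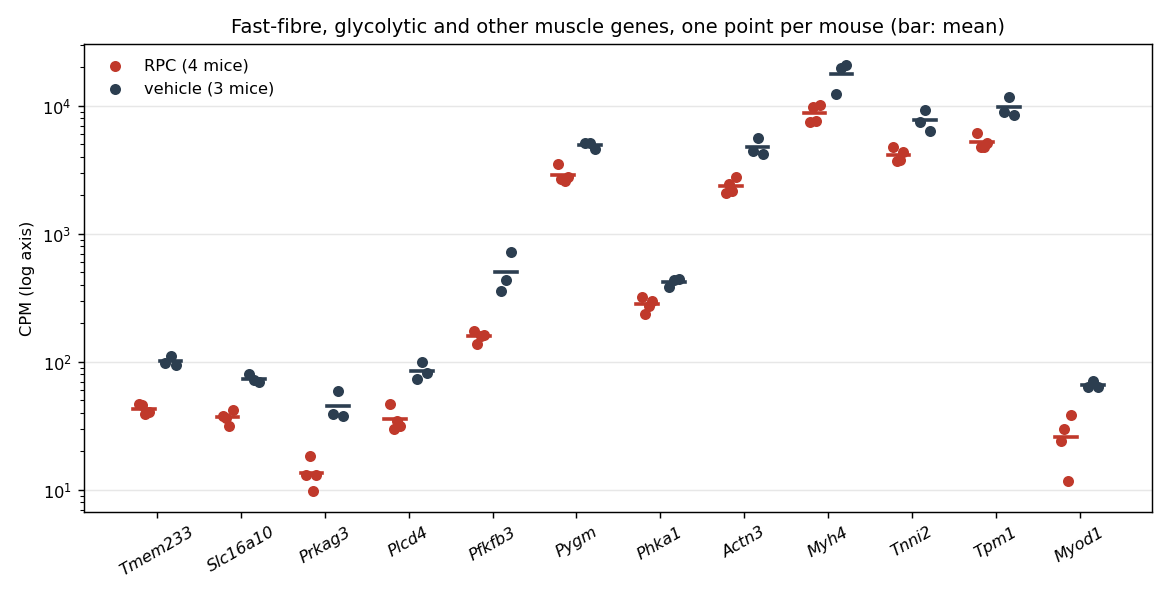
CPM on a log axis (y) of 12 muscle genes (x), 1 point per mouse, RPC in red and vehicle in dark blue, bars at the group means. All 4 RPC mice lie below all 3 vehicle mice in each gene, and in Tmem233 the RPC mice span 39.1-46.5 CPM and the vehicle mice 95.1-111 CPM.

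Glycolysis and glycogen genes gave a median log2 fold change of -0.420, with 16 of 20 lower, 5 apart and lower, and 1 apart and higher. Pygm, muscle glycogen phosphorylase, had 3517, 2706, 2611 and 2775 CPM against 5117, 5137 and 4571 CPM (-0.77 ± 0.23, edgeR adjusted p = 0.290), and Phka1, a subunit of its kinase, had 321, 235, 275 and 297 CPM against 387, 438 and 446 CPM. Both were apart between groups. The member that was higher, Pfkl, is the liver form of phosphofructokinase (0.72 ± 0.16, edgeR adjusted p = 0.265). Respiratory chain genes were lower in 69 of 75 cases, by a median of -0.237. The groups were apart in 2 only, both lower, beside 7.17% of all genes tested.

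Among regulators of myogenesis, Myod1, the master factor of the myogenic programme, had 23.9, 29.7, 11.8 and 38.1 CPM in RPC and 63.8, 70.3 and 63.6 CPM in vehicle (log2 fold change -1.35 ± 0.34, edgeR adjusted p = 0.265, DESeq2 adjusted p = 0.00908). Every RPC mouse was below every vehicle mouse. Myf6, a factor of mature fibres, was also apart (-0.63 ± 0.14). The list of satellite cell and regeneration genes as a whole had a median of -0.123, which was above 0 with both vehicle groups pooled, 0.03, and with the salivary covariate, 0.02. The list of glucose uptake genes and Hs3st5 had 6 of 13 members higher and 7 lower, with a median of -0.121. Groups were apart in 2 higher and 2 lower members. DESeq2 called 1 up-regulated, Irs2, and 2 down-regulated, Hs3st5 and Slc2a3, both of which the study names for this dose. Hs3st5, a heparan sulfate sulfotransferase, had 4.44, 3.07, 1.62 and 3.48 CPM against 9.95, 7.63 and 9.36 CPM (-1.51 ± 0.33, edgeR adjusted p = 0.265, DESeq2 adjusted p = 0.0027). The glucose transporter gene Slc2a3 had 7.14, 9.91, 5.27 and 18.6 CPM against 26.4, 23.3 and 26.7 CPM (-1.32 ± 0.39, edgeR adjusted p = 0.285, DESeq2 adjusted p = 0.0374). The groups were apart in both genes, and Slc2a3 was called in only 1 of the 7 reduced fits. Cldn5, the tight junction protein of endothelium, had 19.7, 13.2, 9.76 and 7.99 CPM against 33.9, 26.9 and 24.9 CPM and was called in 2 of the 7.

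The other genes with the smallest p-values among those with groups apart and a fold above 2 belonged to no single list. Higher in RPC were Cd1d1, which presents lipids to T cells (log2 fold change 1.25, with 26.6% of its 50-base windows shared with Cd1d2), the exchange factor gene Mcf2l (1.24), the chromatin gene Banp (1.26), the mitochondrial carbonic anhydrase gene Car5b (1.4) and the predicted gene Gm6548 (1.11). Lower were the melanin-concentrating hormone receptor gene Mchr1 (-1.08), the calcium channel subunit gene Cacng7 (-1.02), the ubiquitin-conjugating enzyme gene Ube2d1 (-1.01), the solute carriers Slc15a5 (-1.57) and Slc41a3 (-1.02), Ccdc69 (-1.21) and Grip2 (-1.0). With the 3 vehicle mice of the CFA arm added to the controls, edgeR called 7 genes up-regulated, Gm6548, Otop1, Cidea, Irs2, Ucp1, Elovl6 and Slc36a2, and 5 down-regulated, Slc16a10, Prkag3, Grip2, Ccdc69 and St6galnac3. No RPC mouse belongs to the CFA arm, so differences between the arms cannot be told apart from RPC in that fit. In it 3676 genes had an unadjusted edgeR p under 0.05, beside 1924 on the 7 mice.

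Lists of other tissues and states had few members apart, beside 4.93% of all genes tested apart and higher and 7.17% apart and lower. Keratin and epidermis genes were higher in 19 of 20 cases with a median of 0.984, and salivary genes in 18 of 19 with a median of 0.920, with no member of either apart between groups. Genes of muscle atrophy and stress were higher in 17 of 21 (median 0.436, 1 apart). Cartilage and tendon genes had a median of 0.589 over 14 genes and bone genes of -0.092 over 12. Macrophage markers had 0.297 over 22 genes with 1 apart, vascular endothelium -0.129 over 17, Schwann cell and myelin genes -0.134 over 12, proliferation genes 0.044 over 18, fibroblast genes 0.010 over 14 and peripheral pain mediators 0.031 over 15. Lymphocyte markers had -0.021 over 8 genes and blood cell markers -0.473 over 4, with none apart.

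Inflammatory genes were low and mostly not apart between groups. Of 22 tested chemokines, cytokines and their receptors, 20 were higher in RPC (median log2 fold change 0.564). Groups were apart in 3 of the 22, all higher, beside 4.93% of all genes tested. DESeq2 called none, giving no adjusted p to Ccl2 and Ccl7. Ccl2, a monocyte chemokine, had 2.45, 0.576, 2.87 and 1.42 CPM against 0.571, 0.161 and 0.427 CPM (2.20 ± 0.65, edgeR adjusted p = 0.285), and Ccl7 had 1.06, 0.512, 1.39 and 0.633 CPM against 0.25, 0.215 and 0.233 CPM (1.93 ± 0.49, edgeR adjusted p = 0.265). The lowest RPC mouse for Ccl2, RPC 2, was just above vehicle 1. Il6 had at most 2 reads in any of the 7 libraries, and Il1b, like Il6, did not pass the filter. Cd68, a lysosomal marker of macrophages, overlapped (0.28 ± 0.62). The interferon-stimulated list was higher in 19 of 19 members by a median of 0.505, with 2 apart, and MHC class II in 7 of 7 by 0.582, with 1 apart. RPC 3 was the highest mouse in H2-Aa (57.6, 65.9, 132 and 54.2 CPM against 47.7, 44.1 and 51.1 CPM). The neutrophil list had a median of -1.04, with no member apart, and vehicle 3 carried the highest values.

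The 31 genes that the study names for the 0.2U dose, chosen on samples that include these, had 22 tested members, of which 20 were higher in RPC, with 10 apart, and 2 lower, both apart. The choice of these genes is not independent evidence of their direction. The study names some of them, such as the keratin and Col9a genes, for its earlier day after this dose. It names others, such as Fasn, Scd1 and Pck1, for the later day. The RPC label gives no day, so a gene not called here does not bear on what the study reports. Of these DESeq2 called 6 up-regulated and 2 down-regulated. DESeq2 gave no adjusted p to Krt15, Krt79, Evpl, Abca12, Col9a2 and Col9a3, whose levels were low, and did not call Krt14, Krt17, Elovl4 or Fgfr3. Krt14, the keratin of basal epidermis, had 7.79, 24.6, 26.2 and 10.2 CPM in RPC and 4.25, 21.2 and 3.77 CPM in vehicle, and Col9a2, a cartilage collagen, had 0.204, 3.45, 0.833 and 0.791 CPM against 0.678, 0.914 and 0.738 CPM. Both overlapped. Col9a3, another chain of the same collagen, had 1.06, 3.07, 0.787 and 0.791 CPM against 0.321, 0.752 and 0.776 CPM. Its groups were apart by a narrow margin (log2 fold change 1.19 ± 0.63, edgeR adjusted p = 0.432). Mmp20, the enamel protease, did not pass the count filter, with 2, 238, 1 and 0 reads in RPC 1 to 4 and 0 reads in each vehicle library, so that its signal came from RPC 2. The extracellular matrix list, with the collagens that the enzyme cuts, had a median of 0.134 over 37 genes with 1 apart, Eln, the elastin gene (78.6, 41.8, 58.8 and 53 CPM against 36, 34.1 and 32.8 CPM, log2 fold change 0.76 ± 0.21).

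The other 0.2U group, 1C, offers a second set of mice at the same dose. RPC and 1C are both compared with the same 3 vehicle mice, so their values against vehicle are given side by side only. Ucp1 was higher than vehicle by a log2 fold change of 6.30 ± 0.90 in RPC and 7.38 ± 1.63 in 1C, and Elovl6 by 1.57 ± 0.26 and 4.85 ± 1.11. Prkag3 was lower by log2 fold changes of -1.74 ± 0.24 in RPC and -1.21 ± 0.26 in 1C, and Tmem233 of -1.24 ± 0.13 and -0.89 ± 0.20. On 1 scaling of all 31 libraries, Ucp1 was at 43.1 to 127 CPM in RPC, 5.38 to 409 CPM in 1C and at most 18.8 CPM in any mouse of the other 7 groups. Prkag3 was at 11.7 to 21.2 CPM in RPC and 16.6 to 32.7 CPM in 1C, against 44.1 to 71.4 CPM in vehicle, and the 10U group labelled 2d_post_col reached down to 6.06 CPM.

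**Figure D5:**
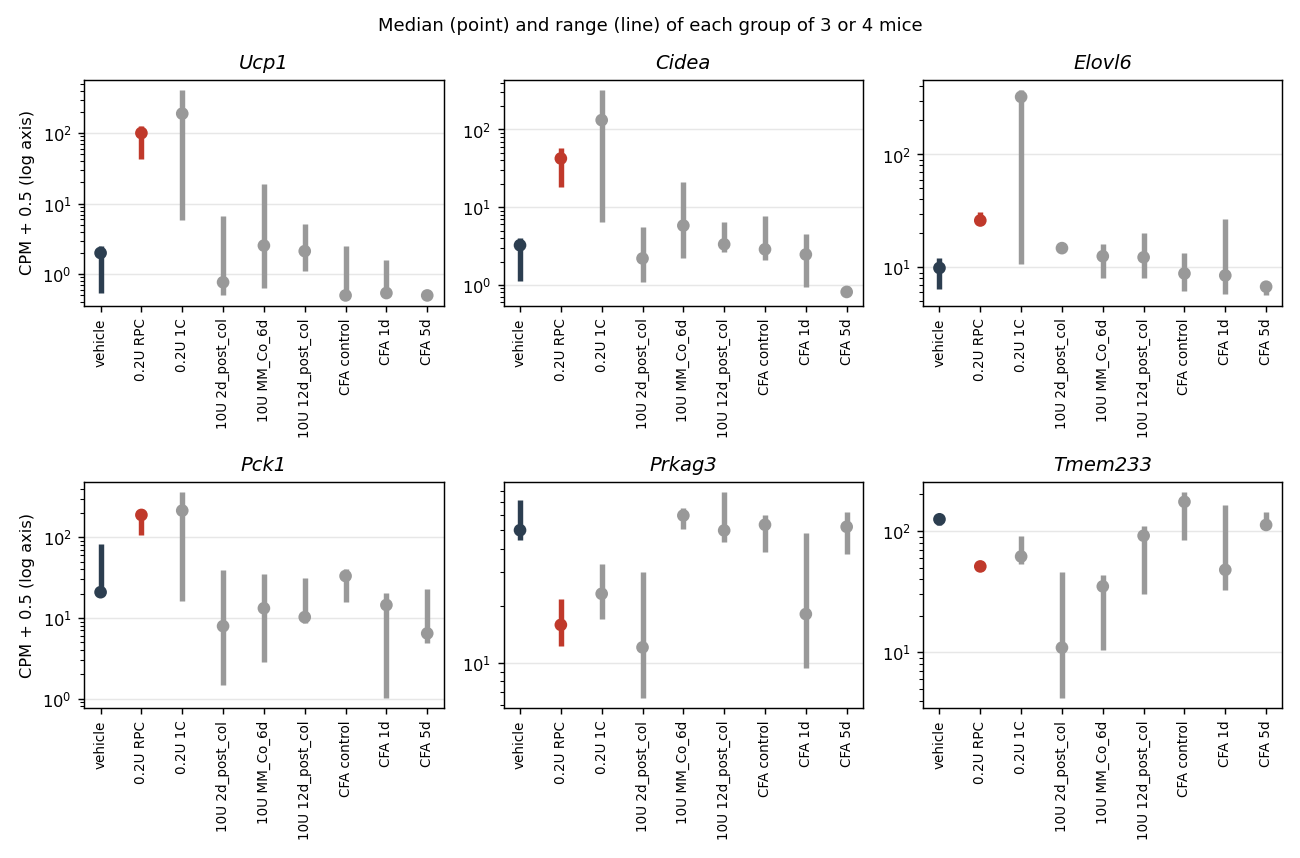
CPM + 0.5 on a log axis (y) of 6 genes in the 9 groups of the series (x), points at the median and lines from the lowest to the highest of the 3 or 4 mice, RPC in red, vehicle in dark blue. Ucp1, Cidea and Pck1 were higher in RPC (43.1-127, 17.6-56.9 and 107-227 CPM) than in every mouse of vehicle, and the 1C group spanned 5.38-409, 5.98-321 and 15.7-359.9 CPM.

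RPC was also tested directly against 1C, over 14570 genes. edgeR called no gene in either direction (0% and 0%; smallest adjusted p = 0.244, 1458 genes at an unadjusted p under 0.05), and DESeq2 called 61 genes higher (0.419%) and 145 lower (0.995%) in RPC. Without 1C replicate 2, edgeR called 2 higher and 112 lower, and without 1C replicate 3 it called 3 higher. Genes higher in RPC included Irs2, at 46.0, 53.5, 124 and 37.6 CPM in RPC 1 to 4 and 17.9, 14.6, 11.8 and 12.7 CPM in 1C 1 to 4 (log2 fold change 2.19 ± 0.37, edgeR adjusted p = 0.244, DESeq2 adjusted p = 6.12e-06), and Nr4a1, an immediate early nuclear receptor, at 298, 406, 675 and 285 CPM against 109, 155, 118 and 127 CPM (1.71 ± 0.29). The groups were apart in both. Lower in RPC were Clec3a, a cartilage lectin, at 0.227, 0.577, 0.776 and 0.176 CPM against 7.16, 16.9, 4.13 and 8.07 CPM (-4.39 ± 0.60, edgeR adjusted p = 0.244, DESeq2 adjusted p = 1.47e-10), and Rarres1, at 1.59, 1.73, 1.40 and 1.32 CPM against 77.6, 2.76, 33.8 and 52.3 CPM. In Rarres1 the second 1C mouse was near RPC. For the fat genes the difference was not resolved: Ucp1 gave a log2 fold change of RPC over 1C of -1.09 ± 0.90 (edgeR adjusted p = 0.719) and Fasn -0.49 ± 0.64 (0.825), while for Elovl6 it was -3.28 ± 0.84 (edgeR adjusted p = 0.299, DESeq2 adjusted p = 0.013).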

How the data were processed

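PolyA RNA of masseter muscle was sequenced with single 50-base reads from a strand-marking kit. Per the submitters' processing notes, the authors aligned reads with TopHat2 to mm9 and counted them per gene with HTSeq; versions and the strand setting are not given in the sources used here. The deposited values are raw counts per gene. The 5 closing lines of each file, which name no gene, were left out of library sizes; reads with no gene were 6.69-22.5% of all in the 31 libraries. Genes with at least 10 counts in 3 of 7 libraries were tested with edgeR 4.0.16 (TMM, quasi-likelihood, Benjamini-Hochberg) in R 4.3.3, and with DESeq2 1.42.0 as an alternative. RPKM used GENCODE vM1 exon lengths. The SE beside an edgeR log2 fold change is its absolute value divided by the square root of the quasi-likelihood F. It was derived from the test and is not a fitted standard error. Depth was 19967262-25902295 reads, and CPM divides by that depth times the TMM factor, so that 1 read of Ucp1 in vehicle 1 was 0.0357 CPM. Intervals cover counting error only. The labels name separate samples; that each is 1 mouse follows from the study's methods. On simulated counts with 200 changed genes (log2 change 2, 13983 genes), edgeR recovered 170, with 13 of 183 calls false. DESeq2 recovered 182, with 42 of 224 calls false. These calls used an adjusted p under 0.05 alone, without the fold and RPKM thresholds of the reported calls. Genes were drawn independently from the vehicle means and fitted dispersions, with no shared tissue mixture. The members, gene lists and tests were chosen with earlier results of these data known. Named genes were the 12 smallest p-values in each direction with groups apart, a fold above 2 and RPKM above 1, the genes the study names for this dose, and up to 5 smallest p-values of each of 30 lists.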

Additional observations from a re-analysis of the deposited data

Results flagged for a closer look

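Among the 4 RPC mice, 126 groups of values (96 named genes and 30 list scores) were tested for a sample standing far from the others by Dixon's ratio of gap to range at the 95% level, and 11 exceeded its critical value; chance gives about 1 in 20. RPC 3 stood apart in 7. It was high for the Schwann cell list (0.935), the interferon-stimulated list (0.836), Hspa1a (0.896), which shares most of its sequence with Hspa1b, and Fcgr1 (0.839). For the Schwann cell list the gap was small: RPC 3 scored 5.14, the other RPC mice 4.91 to 4.92 and the vehicle mice 3.99 to 5.72. RPC 3 thus lay inside the vehicle range there. It was low for the neutrophil list (0.933), blood cells (0.929) and lymphocytes and NK cells (0.89). RPC 4 was low for Krt79 (0.834) and high for Pnpla3 (0.897). RPC 1 was high for the respiratory chain list (0.878) and for Nr1d1 (0.849).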

How the results depend on the processing

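Up-regulated genes numbered 0 by edgeR, 110 by DESeq2, 7 with the 3 vehicle mice of the CFA arm added and 0 to 1 without any one mouse (Pde3b, without vehicle replicate 3). Down-regulated genes numbered 0, 42, 5 and 0. Of the 12 genes called with the CFA-arm vehicle mice added, 11 were DESeq2 calls on the 7 mice, among them Ucp1, Cidea, Elovl6 and Prkag3. Both fits hold the same 7 mice, so this overlap is not independent. DESeq2 counts were 50 to 346 up and 30 to 81 down without one mouse, and 62 up and 36 down with a salivary covariate, where 49 of the 110 and 29 of the 42 were called again. The covariate fits and the DESeq2 leave-one-out fits were chosen after the data were seen. DESeq2 size factors, no count filter, no RPKM threshold, fits of 22 or 31 libraries and both covariate fits gave 0 in edgeR. With the replicate number as a block, edgeR called 9 up and 0 down. Deviations from the group means correlated between same-numbered RPC and vehicle mice with r = 0.579, 0.212 and -0.27. Those of RPC 3 correlated best with vehicle 2 (0.578). Deviations within a group sum to 0, so these values cannot decide whether same-numbered mice belong together. The labels give the number only. RPC against 1C gave 0 with the block, 61 higher and 145 lower by DESeq2, and 0 to 3 higher and 0 to 112 lower without one mouse. Of 96 named genes under 11 alternatives each, 3 changed sign, Krt17 (-0.34 with the salivary covariate), Col9a2 (-0.34 without RPC 2, and up to 1.10 without another mouse) and Cd68 (-0.19 without vehicle 2, and up to 1.05). All 3 are genes the study names for this dose. The other named genes were picked by small p-values on these same mice. Their kept signs were thus largely fixed by that choice and are not evidence of stability. Of 30 list medians, 13 changed sign under some alternative and the others did not. The adipocyte, brown fat, synthesis, sarcomere and glycolysis medians were among those others, so a kept sign does not set these lists apart. DESeq2 gave an adjusted p to 11761 of the 14269 genes, and the others could not be called by it.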
